A study of Mus musculus with 8 samples.

Results

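The unfolded protein response and the targets of ATF4 were followed in mouse liver through 10 genes chosen by symbol: Atf4, Ddit3, Xbp1, Atf3, Atf6, Trib3, Asns, Herpud1, Ern1 and Ppp1r15b. All 10 were found in both assays, among 24079 gene symbols that the RNA-seq and Ribo-seq data share. Male C57BL/6 mice were 8 weeks old when they were put on a high-fat diet (45% kcal from fat). The HF group received this diet alone, and the HB group received it with betaine, a methyl donor, at 2% (w/v) in the drinking water. Livers were taken at postnatal week 25. The labels give 25 weeks for the length of feeding too, which cannot hold together with a start at week 8, and the study's methods give a shorter feeding time that fits both ages. The labels name no transgene or deletion, the mice on a standard diet were not analysed here, and all groups shared the high-fat diet.

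RNA-seq measured polyadenylated mRNA, and Ribo-seq measured ribosome-protected fragments (RPFs), the short pieces of mRNA that ribosomes shield from RNase. Each assay had 2 libraries per group, numbered 1 and 2 in the labels. The methods name 2 mice per group for sequencing whereas the labels describe pooled preparations, so the p-values below measure only the spread between libraries, which may be technical. Values are RPKM, the reads of a gene scaled by its length and by the total reads of the library. RNA-seq totals were 11661207 and 11824128 reads in HF and 22543471 and 18082685 in HB. Ribo-seq totals were far smaller and ran the other way, with 387980 and 1056546 reads in HF and 257086 and 141890 in HB. For a transcript of 1 kb, a floor of 3 reads stood at 0.133 to 0.257 RPKM in RNA-seq and at 2.84 to 21.1 RPKM in Ribo-seq. Alb, the hepatocyte gene for serum albumin, took the most reads in each of the 8 libraries.

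The unfolded protein response is the program that cells start when proteins misfold in the endoplasmic reticulum (ER). Its sensors are IRE1 (encoded by Ern1), ATF6 and PERK. IRE1 splices the Xbp1 mRNA, ATF6 is cut to release a transcription factor, and PERK phosphorylates eIF2, which slows most translation while ribosomes reach the main reading frame of Atf4 more often through its upstream reading frames. ATF4 then induces genes of amino acid supply and stress, among them Asns, Atf3, Trib3 and Ddit3 (encoding CHOP), and liver uses the program to handle its large load of secreted proteins.

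Of the 10 genes, Ern1 mRNA was higher and Ddit3 and Atf4 mRNA were lower in HB than in HF. Ern1 mRNA was 4.67-fold higher in HB, while the mean mRNA level of Ddit3 was 2.37-fold and that of Atf4 1.76-fold higher in HF. The test was limma on log2(RPKM + 1) with Benjamini-Hochberg adjustment over all genes with a mean of at least 1 RPKM, and a gene passed at an adjusted p under 0.05. A fold change on this scale understates the change of low genes. With that filter 9 of the 10 genes were tested for mRNA, Asns being too low, and 3 of the 9 passed, 1 higher and 2 lower. Among all 10687 genes tested, 27.0% passed, 7.92% higher in HB and 19.1% lower, so a share of 3 in 9 lies near the background. The median log2 fold change was -0.46 over the 9 genes and -0.19 over all genes tested. For RPFs, 8 of the 10 genes were tested and 0 passed in limma, as did 0% of the 11190 genes tested. For translation efficiency (TE, the RPF level divided by the mRNA level), 8 were tested and 0 passed, as did 0% of the 9455 genes tested.

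**Figure D1:**
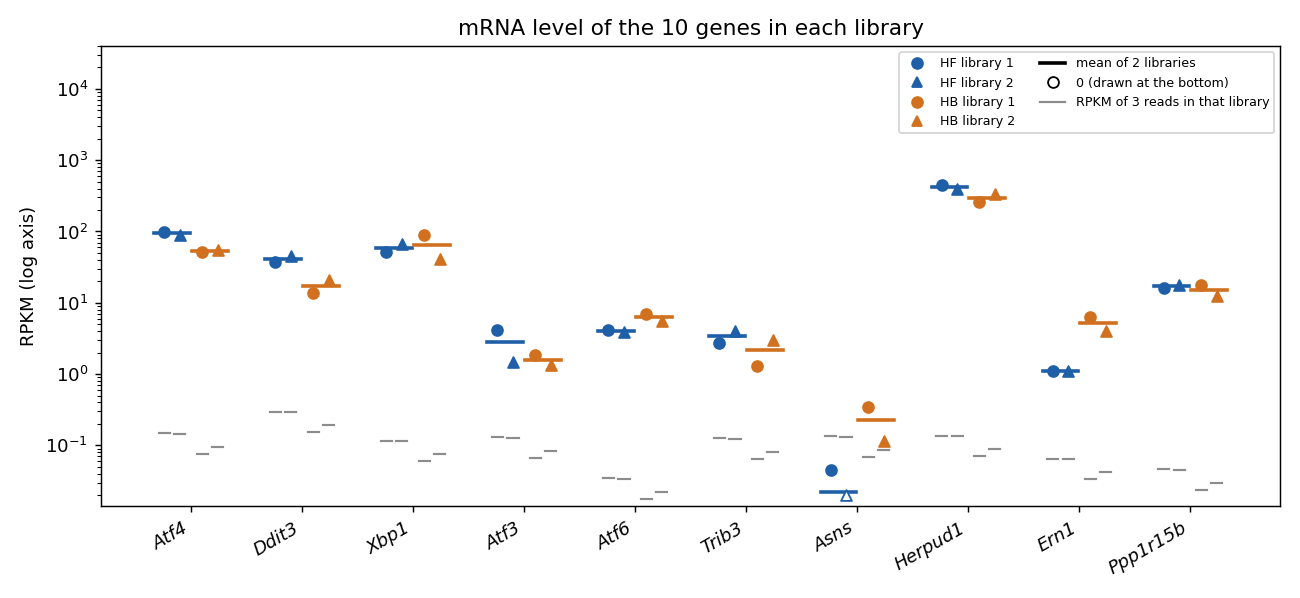
mRNA level in RPKM (log axis) of the 10 genes in the 2 HF and 2 HB RNA-seq libraries, with circles for library 1, triangles for library 2, bars for the mean and grey ticks for the RPKM of 3 reads in that library. The HB points of Ern1 lie above both HF points, those of Atf4 and Ddit3 lie below both, and the HF points of Asns lie under the ticks.

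Ern1 encodes IRE1, the kinase and RNase that senses misfolded protein in the ER membrane, and lies on the minus strand of chr11:106394650-106487852 (GRCm38, 22 exons in the transcript used). Its mRNA was at 1.12 and 1.11 RPKM in the HF libraries, from 52 reads each, and at 6.37 and 4.03 RPKM in the HB libraries, from 571 and 290 reads. Both HB libraries lay above both HF libraries, and the HB libraries differed from each other more than the HF libraries did. The log2 fold change was 1.53 ± 0.27 (SE, n = 2 libraries per group, limma adjusted p = 0.00642). It passed in 12 of 13 alternatives, with adjusted p from 5.01e-05 to 0.0550, and was the 1 gene of the 9 that also passed the study's own thresholds for mRNA, which ask for a log2 fold change over 1 in size and a raw p under 0.001. Those thresholds called 8.86% of all genes tested.

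The RPF level of Ern1 gave a different picture. Its RPFs were at 12.3 and 9.05 RPKM in HF, from 19 and 38 reads, and at 13.7 and 7.09 RPKM in HB, from 14 and 4 reads. The groups overlapped, and the log2 fold change of -0.09 ± 0.53 (SE, n = 2, limma adjusted p = 0.959) had a 95% interval from -1.46 to 1.29. The sum of reads in each group gave 9.92 RPKM in HF (exact 95% Poisson interval 7.52 to 12.9) and 11.3 RPKM in HB (6.72 to 17.9). Such intervals cover counting error only.

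The TE of Ern1 was 11.0 and 8.18 in the HF library pairs and 2.15 and 1.76 in the HB pairs. The pairs of the groups did not overlap, and the HF mean was 4.90-fold above the HB mean. On the log2 scale with 1 added to each RPKM, the difference was -1.61 ± 0.46 (SE, n = 2), with an unadjusted p of 0.0130 and a limma adjusted p of 0.346, so it did not pass. Since the mRNA level is the denominator of TE and differed in the opposite direction, this is no separate observation from the mRNA result. Without HB library 1 the TE of Ern1 passed at an adjusted p of 0.0272, in a fit where 1601 genes passed, and over its 13 alternatives the adjusted p ran from 0.0272 to 1.00. In HF its TE stood at the 98.7th percentile of 9454 ranked genes, whose median was 1.09.

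Atf6 encodes the sensor that is cut in the Golgi to release a transcription factor (chr1:170704674-170867771, minus strand). Atf6 mRNA was at 4.14 and 3.86 RPKM in HF and at 6.99 and 5.50 RPKM in HB. Both HB libraries were above both HF libraries, yet the log2 fold change of 0.53 ± 0.25 (SE, n = 2, limma adjusted p = 0.144) did not pass. With library medians aligned it was 0.80 and passed (adjusted p = 0.0382), and over its 14 alternatives the adjusted p ran from 0.0382 to 0.461.

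Atf6 was also among the better covered genes for RPFs. Its RPFs were at 18.3 and 22.4 RPKM in HF, from 53 and 177 reads, and at 10.4 and 11.3 RPKM in HB, from 20 and 12 reads. HF lay above HB in both libraries, opposite in direction to the mRNA. The log2 fold change was -0.84 ± 0.40 (SE, n = 2, limma adjusted p = 0.555), and the pooled level was 21.3 RPKM in HF (exact 95% Poisson interval 18.7 to 24.3) against 10.7 RPKM in HB (7.35 to 15.2). These counting intervals did not overlap, but they leave out the spread between libraries, and the test between libraries did not pass.

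The TE of Atf6 was 4.42 and 5.81 in HF and 1.49 and 2.06 in HB, a 2.88-fold higher mean in HF with no overlap. Its log2 difference of -1.37 ± 0.47 (SE, n = 2) had an unadjusted p of 0.0271 and a limma adjusted p of 0.372. Ern1 and Atf6 were the 2 of 8 genes with an unadjusted TE p under 0.05, a level reached by 12.2% of all genes tested. The study's thresholds for TE ask for a log2 difference over 2 in size at a raw p under 0.05. With 1 added to each RPKM, which the study's TE formula does not include, 0 of the 8 genes were called, against 6.09% of all genes tested. This count depends on the setting, since the TE difference of Ern1 was -2.19 with 0.1 added, past the size of 2. With RPKM rescaled to a common sum, which moved the TE median of all genes to -1.03, the difference was -2.37 for Ern1 and -2.15 for Atf6.

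Xbp1 encodes the transcription factor downstream of IRE1 (chr11:5520659-5525893, plus strand). IRE1 removes a stretch of 26 bases from its mRNA, which shifts the reading frame so that the active, longer protein is made. The stretch is shown here since the Xbp1 values below are per gene and do not tell the spliced from the unspliced form. It was read from GENCODE M21 (GRCm38) as chr11:5524282-5524307, plus strand, with the 26 bases in capitals and 20 bases on either side.

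Xbp1 stretch removed by IRE1: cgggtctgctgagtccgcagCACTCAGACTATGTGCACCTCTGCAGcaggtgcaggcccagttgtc

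With the stretch the main frame runs for 267 codons, and without it for 371. The gene lengths behind the deposited RPKM of Xbp1 were 2221 bases in RNA-seq and 2247 in Ribo-seq. This difference of 26 bases set the length of the stretch that was searched for in the coding sequence, so the equal length is no separate observation. The level of Xbp1 mRNA was 51.0 and 67.5 RPKM in HF and 88.4 and 41.6 RPKM in HB. The HB libraries lay on either side of both HF libraries, and the log2 fold change was 0.05 ± 0.35 (SE, n = 2, limma adjusted p = 0.932, 95% interval -0.75 to 0.84). The RPFs of Xbp1 were at 58.5 and 60.2 RPKM in HF, from 51 and 143 reads, and at 79.6 and 47.0 RPKM in HB, from 46 and 15 reads. They showed the same arrangement, and their log2 fold change was 0.04 ± 0.36 (SE, n = 2, limma adjusted p = 0.968, 95% interval -0.90 to 0.99). In both assays HB library 1 was the highest and HB library 2 the lowest of the 4 libraries. The TE of Xbp1 stayed near that of the median gene, from 0.893 to 1.15 over the 4 pairs.

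**Figure D2:**
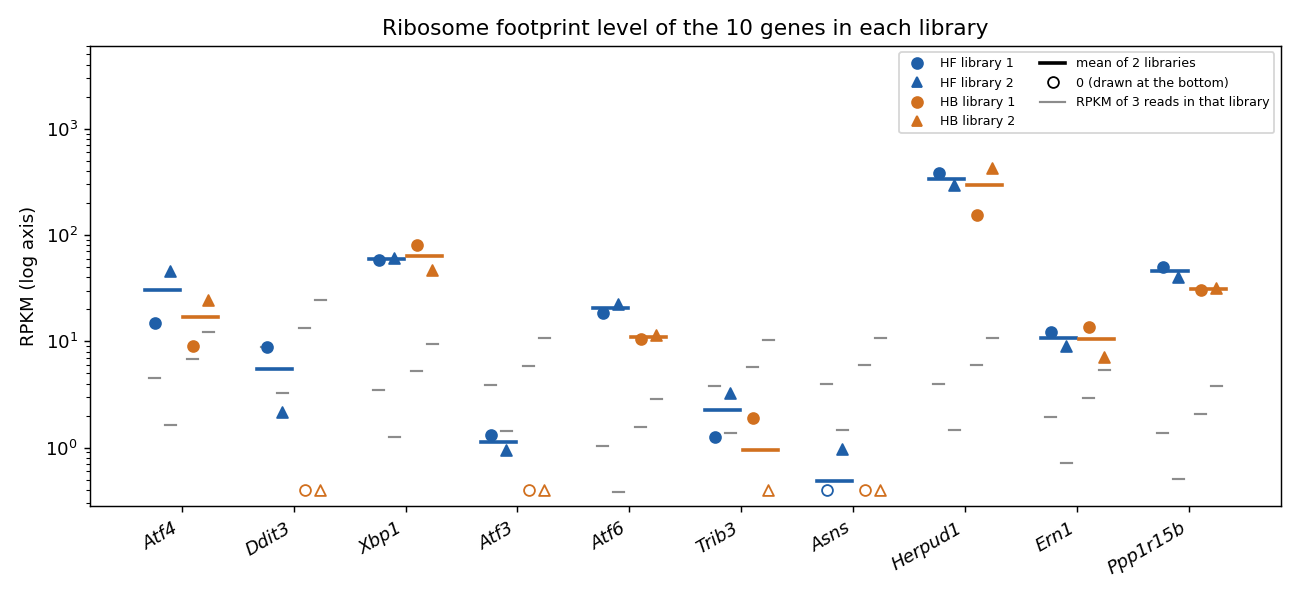
Ribosome footprint (RPF) level in RPKM (log axis) of the 10 genes in the 2 HF and 2 HB Ribo-seq libraries, with symbols as for the mRNA levels, open symbols at the bottom for values of 0 and grey ticks for the RPKM of 3 reads. Ddit3, Atf3 and Asns have 0 in both HB libraries, where the ticks lie above most or all of their HF points, whereas Atf6 and Ppp1r15b lie well above the ticks.

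Atf4 encodes the transcription factor whose translation rises when eIF2 is phosphorylated (chr15:80255184-80257541, plus strand). Its mRNA was at 99.7 and 88.3 RPKM in HF, from 2010 and 1806 reads, and at 51.3 and 55.6 RPKM in HB, from 1999 and 1737 reads. The groups did not overlap and the libraries within each were close. The log2 fold change was -0.80 ± 0.25 (SE, n = 2, limma adjusted p = 0.0392). This call was near the threshold. The log2 fold change stayed about as large without HF library 1 (-0.72, adjusted p = 0.306), without HF library 2 (-0.89, adjusted p = 0.152) and without HB library 1 (-0.75, adjusted p = 0.0514), in fits where 1 group is a single library assumed to vary like the other. Over 14 alternatives the adjusted p ran from 0.0210 to 0.306 and was under 0.05 in 9. With library medians aligned, a shift that moved the median of all genes from -0.19 to 0.08, the log2 fold change of Atf4 was -0.53 (adjusted p = 0.163).

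The leader of the Atf4 transcript in GENCODE M21 holds 3 upstream ATGs, of which 2 open frames that end before the main start and 1 opens a frame of 59 codons that overlaps it. The deposited values are per gene, so RPFs on these frames and on the main frame cannot be told apart. Atf4 RPFs were at 14.9 and 46.0 RPKM in HF, from 10 and 84 reads, and at 8.999 and 24.5 RPKM in HB, from 4 and 6 reads. The groups overlapped, and in each group library 2 was the higher. The log2 fold change was -0.78 ± 0.75 (SE, n = 2, limma adjusted p = 0.711), and without HF library 2 it was 0.00. The TE of Atf4 was 0.150 and 0.521 in HF and 0.175 and 0.440 in HB, a log2 difference of 0.03 ± 0.97 (SE, n = 2, limma adjusted p = 0.995) with a 95% interval from -2.33 to 2.38. At 10 RPF reads in all for HB, neither a 4-fold rise nor a 4-fold drop of its TE was detectable.

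Ppp1r15b encodes the constitutive subunit that brings a phosphatase to eIF2, and its leader holds 3 upstream ATGs whose frames all end before the main start (chr1:133131143-133139783, plus strand). Exons of Ppp1r15b overlap exons of Gm26616 on the opposite strand. The mRNA of Ppp1r15b was at 16.4 and 17.7 RPKM in HF and at 17.9 and 12.3 RPKM in HB. The groups overlapped (log2 fold change -0.19 ± 0.27 SE, n = 2, limma adjusted p = 0.629). Its RPFs were at 50.3 and 40.7 RPKM in HF, from 109 and 240 reads, and at 30.6 and 31.5 RPKM in HB, from 44 and 25 reads. Both HF libraries were above both HB libraries by a mean of 1.46-fold, but the log2 fold change of -0.53 ± 0.31 (SE, n = 2, limma adjusted p = 0.617) did not pass. Its TE in HF, at 3.07 and 2.30, stood at the 82.9th percentile of ranked genes and overlapped the HB values of 1.72 and 2.57.

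Ddit3 encodes CHOP, a transcription factor induced by ATF4 under lasting ER stress (chr10:127290774-127296288, plus strand). Its mRNA was at 37.8 and 44.8 RPKM in HF, from 384 and 461 reads, and at 13.9 and 21.0 RPKM in HB, from 273 and 330 reads. The groups did not overlap, and the log2 fold change was -1.22 ± 0.28 (SE, n = 2, limma adjusted p = 0.0133). It passed in 12 of 14 alternatives, with adjusted p from 0.00176 to 0.0600, and without HF library 2 the log2 fold change was -1.10 (adjusted p = 0.0597). Exons of Ddit3 overlap exons of Mars, which encodes methionyl-tRNA synthetase, and of the processed transcript Gm4189, both on the opposite strand. They also overlap another protein-coding entry named Ddit3 on the same strand. The library kit does not mark strand, and reads of the shared parts cannot be told apart. Mars mRNA itself was at 20.2 and 19.3 RPKM in HF and at 20.7 and 21.5 RPKM in HB (log2 fold change 0.09 ± 0.24 SE, n = 2, limma adjusted p = 0.801).

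The RPFs of Ddit3 were at the limit of these libraries. They numbered 3 and 2 reads in HF, at 8.88 and 2.17 RPKM, and 0 reads in both HB libraries. A count of 0 allows up to 3 reads, which is 13.4 RPKM in HB library 1 and 24.3 RPKM in HB library 2, above both HF values, so a difference was not detectable at this depth and no fold is given. The fitted difference had an unadjusted p of 0.0285 and a limma adjusted p of 0.493, and it rested on these values of 0. Ddit3 was the 1 of 8 genes with an unadjusted RPF p under 0.05, a level that 10.0% of all genes tested reached, and the 1 that met the study's RPF thresholds (a log2 fold change over 1 in size at that p), as did 9.44%. Its adjusted p was 0.0149 without HF library 1 and 0.0290 without HF library 2, but the spread in these fits comes from 2 HB values that are both 0, so they say nothing of a difference (range over 13 alternatives 0.0149 to 0.886). Its transcript leader holds 2 upstream ATGs, and its TE in HF, 0.235 and 0.0486, stood at percentile 3.92 of the ranked genes.

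Trib3 encodes a pseudokinase that ATF4 and CHOP induce (chr2:152337422-152344032, minus strand). Trib3 mRNA was at 2.76 and 4.08 RPKM in HF and at 1.30 and 3.05 RPKM in HB. The groups overlapped (log2 fold change -0.52 ± 0.31 SE, n = 2, limma adjusted p = 0.242), and without HB library 2 the log2 fold change was -0.93 and passed (adjusted p = 0.0366, range 0.0366 to 0.800 over 13 alternatives). Its RPFs numbered 1 and 7 reads in HF and 1 and 0 reads in HB, and only HF library 2 exceeded the floor of 3 reads. No RPF or TE difference was therefore detectable for Trib3.

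Atf3 encodes a transcription factor induced early by many stresses (chr1:191170296-191218039, minus strand). Atf3 mRNA was at 4.12 and 1.46 RPKM in HF, from 95 and 34 reads, and at 1.84 and 1.34 RPKM in HB, from 82 and 48 reads. HF library 1 stood above the other 3, which lay close together. The log2 fold change of -0.46 ± 0.34 (SE, n = 2, limma adjusted p = 0.337) passed without HF library 2 (-0.99, adjusted p = 0.0468) and was 0.07 without HF library 1 (range of adjusted p over 13 alternatives 0.0468 to 0.926). RPFs of Atf3 numbered 1 and 2 reads in HF and 0 in both HB libraries, all at or under the floor, and were not tested.

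Asns encodes asparagine synthetase, a classical ATF4 target of amino acid supply (chr6:7675169-7693254, minus strand). Its mRNA was close to absent in HF, with 1 and 0 reads at 0.0445 and 0 RPKM, and low in HB, with 15 and 4 reads at 0.345 and 0.115 RPKM. Both HB libraries were above both HF libraries, and all 4 lay under the 1 RPKM filter. The floor of 3 reads stood at 0.134 and 0.132 RPKM in the HF libraries, above HB library 2, so HB library 2 cannot be set apart from HF. Summed over libraries and scaled by total reads, the ratio of HB to HF was 11.0, with a counting interval from 1.75 to 456 (conditional exact binomial, 95%), and it rests on 1 HF read. RPFs of Asns numbered 0 and 2 reads in HF and 0 in both HB libraries, at or under the floor throughout.

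Herpud1 encodes an ER membrane protein of ER-associated degradation that the unfolded protein response induces, and it was the most abundant of the 10 genes in both assays (chr8:94386438-94395377, plus strand). Herpud1 mRNA was at 454.9 and 399.5 RPKM in HF and at 259.0 and 335.9 RPKM in HB. The groups did not overlap, yet the log2 fold change of -0.53 ± 0.28 (SE, n = 2, limma adjusted p = 0.180) did not pass. Without HB library 2 it was -0.72 and passed (adjusted p = 0.0451, range 0.0451 to 0.606 over 14 alternatives). Its RPFs were the best covered of the 10 genes, at 379.7 and 296.8 RPKM in HF, from 288 and 613 reads, and at 155.2 and 429.0 RPKM in HB, from 78 and 119 reads. HB library 1 was the lowest and HB library 2 the highest of the 4, so that the log2 fold change was -1.11 without HB library 2 and 0.35 without HB library 1, against -0.38 ± 0.54 (SE, n = 2, limma adjusted p = 0.808) with all libraries.

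Promoters were searched for the elements through which these factors act, since several of the 10 genes are targets of the others. RefSeq promoter sequences (GRCm38.p6) were found for 8 of the 10 genes, all but Atf6 and Ppp1r15b, and the 250 bases before the start were searched on both strands. The ER stress element II that XBP1 and ATF6 use, ATTGGNCCACG, occurred in 1 of the 8, Herpud1, and in 10 of 32851 promoters (0.0304%). The core of the C/EBP-ATF response element bound by ATF4, TGATGNAA, occurred in Asns, Atf3 and Herpud1 and in 3.45% of all promoters. The ER stress element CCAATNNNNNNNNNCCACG (0.113% of promoters), the UPR element core TGACGTGG (0.563%) and the cAMP response element TGACGTCA (1.55%) occurred in 0 of the 8. A match is a description of the letters and not a binding site, and no binding was measured here. The matches are printed on the strand of the gene with up to 20 bases on either side and the element in capitals.

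Herpud1 ER stress element II, chr8:94386357-94386407, plus strand: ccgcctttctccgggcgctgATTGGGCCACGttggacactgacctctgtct

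Herpud1 C/EBP-ATF core on the opposite strand, chr8:94386297-94386344, plus strand: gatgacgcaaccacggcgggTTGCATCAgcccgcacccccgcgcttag

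Asns C/EBP-ATF core, chr6:7693210-7693252, minus strand: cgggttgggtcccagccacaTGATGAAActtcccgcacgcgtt

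Atf3 C/EBP-ATF core on the opposite strand, chr1:191183416-191183463, minus strand: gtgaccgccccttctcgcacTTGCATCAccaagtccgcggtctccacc

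Relative to the RefSeq start, the ER stress element II of Herpud1 lies at -52 to -42 and its C/EBP-ATF core at -112 to -105, without overlap. The core of Asns lies at -23 to -16 and that of Atf3 at -110 to -103 from their RefSeq starts. These starts differ from the ends of the GENCODE gene intervals given above, and the matches of Asns and Atf3 lie inside those intervals. Of these 3 genes with the C/EBP-ATF core, none passed the mRNA test, with Asns not tested.

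**Figure D3:**
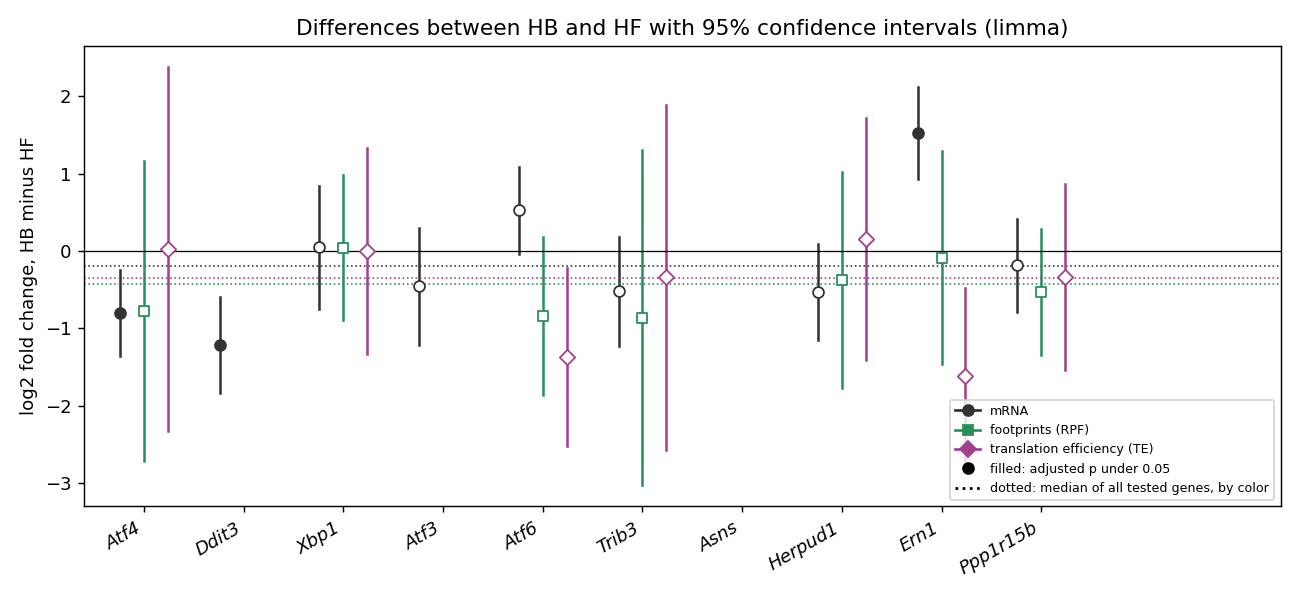
Log2 fold change of HB against HF for the 10 genes in mRNA (circles), RPFs (squares) and TE (diamonds), with 95% confidence intervals from limma, filled symbols for an adjusted p under 0.05 and dotted lines for the median of all genes tested. The 3 filled symbols are the mRNA values of Atf4 (-0.80), Ddit3 (-1.22) and Ern1 (1.53), and the RPF and TE intervals are wider than those of mRNA. RPFs and TE of Ddit3 are left out, since HB has 0 reads.

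In mRNA the libraries of the groups did not overlap for 5 of the 9 genes tested, Atf4, Ddit3, Atf6, Herpud1 and Ern1, and for 68.1% of all genes tested. In RPFs this held for 3 of 8 genes, Ddit3, Atf6 and Ppp1r15b, against 42.3% of all genes, and in TE for Ddit3, Atf6 and Ern1, against 45.7%. The entry of Ddit3 in both rests on HB values of 0 whose floor lies above the HF values, so its groups cannot be said to differ. These shares lie near or under the background. An exact permutation test of a single gene with 2 libraries against 2 cannot give a two-sided p under 0.333, so the adjusted p-values rest on the spread that limma shares among genes. The median log2 fold change in RPFs was -0.65 over the 8 genes and -0.43 over all genes tested. In TE it was -0.34 over the 8 genes and -0.35 over all. Without Ddit3 the medians of the 7 other genes were -0.53 in RPFs and -0.34 in TE. At an unadjusted p under 0.05, 3 of the 9 genes were counted for mRNA, against 40.5% of all genes tested. For RPFs, voom on the recovered reads passed 81 of all genes and 0 of the 8 genes tested.

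**Figure D4:**
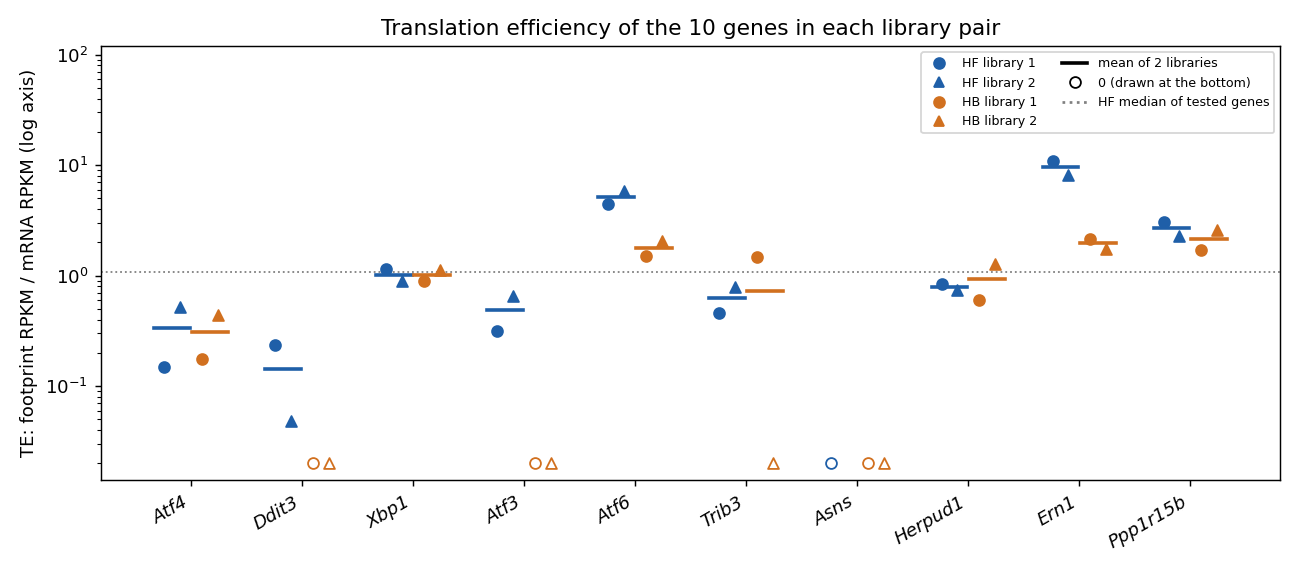
TE (RPF RPKM divided by mRNA RPKM, log axis) of the 10 genes in the 2 HF and 2 HB library pairs, with open symbols at the bottom for pairs with 0 RPFs and a dotted line for the HF median of tested genes, 1.09. Ern1 and Atf6 lie highest in HF (means 9.58 and 5.12) and lower in HB (1.95 and 1.78), while Atf4 and Ddit3 lie under the line.

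The genes covered a wide range of levels per length. In HF the mean mRNA level ran from Herpud1 at 427 RPKM over Atf4, Xbp1, Ddit3 and Ppp1r15b to Atf6, Trib3, Atf3 and Ern1, with Asns last at 0.0223 RPKM. In that order the libraries of Atf6 and Trib3 overlapped, and so did those of Trib3 and Atf3. In HB the order of mRNA levels was Herpud1, Xbp1, Atf4, Ddit3, Ppp1r15b, Atf6, Ern1, Trib3, Atf3 and Asns, and the libraries overlapped between Xbp1 and Atf4, Ddit3 and Ppp1r15b, Atf6 and Ern1, and Trib3 and Atf3. Ern1 was thus ninth in HF and seventh in HB. In RPFs the HF order was Herpud1, Xbp1, Ppp1r15b, Atf4, Atf6 and Ern1, and then Ddit3, Trib3, Atf3 and Asns with 10 reads or fewer in all. Here the libraries of Atf4 overlapped those of both Ppp1r15b and Atf6, and each of the last 4 genes overlapped the next. Together the 10 genes took 0.131% and 0.123% of RNA-seq reads in HF and 0.0966% and 0.0970% in HB, and 0.138% and 0.124% of Ribo-seq reads in HF and 0.0805% and 0.128% in HB.

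Other genes of the pathway were read from a list of 75 in 4 groups, of which 65 were tested for mRNA. In limma 6 passed as higher and 6 as lower in HB, and 0 of the 66 tested for RPFs and 0 of the 63 tested for TE passed. Among all genes tested 27.0% passed, 7.92% higher and 19.1% lower, so the total and the lower genes lay under the background and the 6 higher genes near it. At an unadjusted p under 0.05 there were 19 of 65 for mRNA against 40.5% of all genes, 2 for RPFs against 10.0% and 4 for TE against 12.2%. The counts in each group below are to be read against the same 27.0%. The median mRNA log2 fold change of the 65 was 0.09, against -0.19 for all genes tested. The direction of all 12 held in every mRNA alternative, but the calls moved with those of all genes. Of the 12, 3 passed without HF library 1, 5 without HF library 2, 6 without HB library 1 and 11 without HB library 2, in fits where 1316, 1945, 2441 and 3726 of all genes passed against 2890 with every library. With medians aligned 7 passed, 5 of the 6 lower genes losing the call. Syvn1 passed in 13 of 14 alternatives (adjusted p from 3.66e-07 to 0.0539) and Gars in 5 of 14 (0.0176 to 0.315), the most and the fewest of the 12.

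Among the other sensors, eIF2 kinases and phosphatase subunits, 2 of 9 passed, both lower in HB. Creb3l3 encodes a liver transcription factor that is cut in the Golgi as ATF6 is. Its mRNA was at 342 and 298 RPKM in HF and at 136 and 181 RPKM in HB (log2 fold change -1.02 ± 0.27 SE, n = 2, limma adjusted p = 0.0246). Ppp1r15a encodes GADD34, the inducible counterpart of the subunit that Ppp1r15b encodes, and its mRNA was at 18.3 and 15.3 RPKM in HF and at 5.97 and 9.20 RPKM in HB (-1.07 ± 0.28 SE, n = 2, limma adjusted p = 0.0207). Creb3l3 RPFs were lower in both HB libraries as well, at 75.0 and 89.5 RPKM from 44 and 29 reads against 135 and 126 RPKM from 120 and 304 reads in HF, and did not pass (adjusted p = 0.505). Ppp1r15a RPFs were at 4.42 and 4.87 RPKM in HF, from 4 and 12 reads, and at 5.00 and 21.1 RPKM in HB, from 3 and 7 reads. Their log2 fold change of 1.03 ± 0.78 (SE, n = 2, limma adjusted p = 0.657) had the opposite sign to the mRNA. HB library 1 was at the floor of 3 reads, so the size of this difference rests on 7 reads in HB library 2. The TE difference of Ppp1r15a, 2.11 with an unadjusted p of 0.0254 (limma adjusted p = 0.370), rests on the same reads. Pdia6 and Derl1, named again with their mRNA, also had an unadjusted TE p under 0.05, in the opposite direction (TE differences of -1.59 and -1.30, unadjusted p = 0.0409 and 0.0358, limma adjusted p = 0.399 and 0.385). Mbtps1, the protease that makes the first of these cuts, was at 11.9 and 10.4 RPKM of mRNA in HF and at 10.7 and 10.3 in HB. Its RPF log2 fold change was 0.20 ± 0.51 (SE, n = 2, limma adjusted p = 0.892).

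Of 20 ER chaperones and folding enzymes, 2 passed as higher and 1 as lower in HB, under the 27.0% of all genes tested. The protein disulfide isomerases Pdia6 and P4hb were the 2 that rose. Pdia6 mRNA was at 50.4 and 76.9 RPKM in HF and at 169 and 150 RPKM in HB (log2 fold change 1.34 ± 0.28 SE, n = 2, limma adjusted p = 0.0107), and P4hb mRNA at 288 and 325 RPKM in HF and at 620 and 497 RPKM in HB (0.86 ± 0.28 SE, adjusted p = 0.0455). Their RPFs, from 23 to 1910 reads per library, did not pass, with log2 fold changes of -0.25 ± 0.31 for Pdia6 and -0.14 ± 0.25 for P4hb (SE, n = 2, limma adjusted p = 0.775 and 0.848). Creld2, which an ER stress element controls, fell by 1.02 on the log2 scale of mRNA (limma adjusted p = 0.0289). Its RPFs, from 11 and 14 reads in HF and 8 and 5 in HB, had the opposite sign (0.73 ± 0.49 SE, n = 2, limma adjusted p = 0.645). Hsp90b1, the ER chaperone with the most RPF reads after P4hb, was at 157 and 218 RPKM of mRNA in HF and 231 and 182 in HB. Its RPF log2 fold change was 0.06 ± 0.34 (SE, n = 2, limma adjusted p = 0.955).

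Of 13 genes of ER-associated degradation tested, 2 passed as higher and 1 as lower. Syvn1 encodes HRD1, the ubiquitin ligase that works with Herpud1, and had the largest mRNA difference of the 12 pathway genes that passed, at 230 and 176 RPKM in HF and 36.9 and 57.7 RPKM in HB (log2 fold change -2.10 ± 0.30 SE, n = 2, limma adjusted p = 0.00525). Its RPFs were at 20.1 and 13.6 RPKM in HF and at 10.1 and 2.03 RPKM in HB, from 27, 50, 9 and 1 reads, and did not pass (adjusted p = 0.560). Vcp, the ATPase that pulls proteins out of the ER membrane, rose by 0.95 and Derl1, a channel component, by 0.78 on the log2 scale of mRNA (adjusted p = 0.0254 and 0.0463).

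Of the 23 other ATF4 targets tested, 2 passed as lower and 2 as higher in HB. The stress genes Gdf15 and Nupr1 fell. Gdf15 mRNA was at 26.3 and 21.7 RPKM in HF and at 4.66 and 14.3 RPKM in HB (log2 fold change -1.42 ± 0.41 SE, n = 2, limma adjusted p = 0.0307), and Nupr1 mRNA at 4.66 and 4.46 RPKM in HF and 1.35 and 2.21 RPKM in HB (-1.02 ± 0.26 SE, adjusted p = 0.0195). Eif4ebp1, a repressor of cap-dependent translation, rose by 0.87 and Gars, encoding glycyl-tRNA synthetase, by 0.75 on the same scale (adjusted p = 0.0432 and 0.0491). Among the targets with the most RPF reads, Cth of cysteine synthesis was at 127 and 126 RPKM of mRNA in HF and at 175 and 144 in HB. Cebpb, a partner of ATF4, was at 414 and 328 RPKM in HF and at 148 and 247 in HB (-0.94 ± 0.32 SE, n = 2, limma adjusted p = 0.0519). In RPFs the log2 fold change was -0.58 ± 0.41 for Cth, opposite in sign to its mRNA, and 0.02 ± 0.36 for Cebpb (SE, n = 2, limma adjusted p = 0.651 and 0.984).

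**Figure D5:**
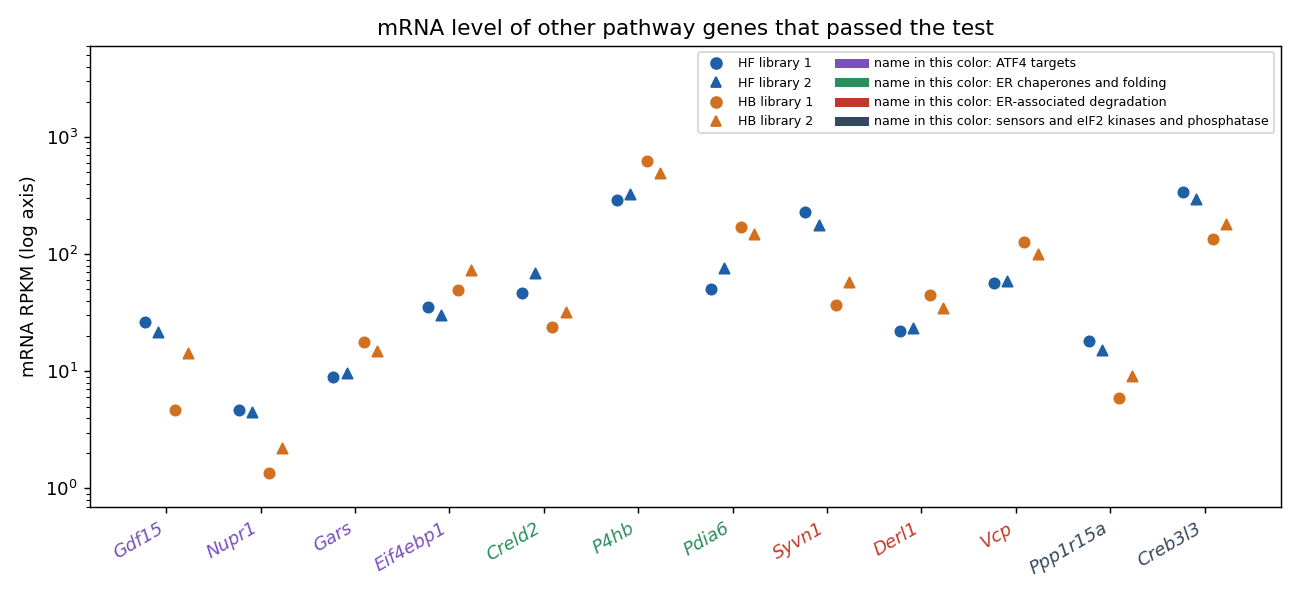
mRNA level in RPKM (log axis) of the 12 other pathway genes that passed the test, in the 2 HF and 2 HB libraries, with the names colored by group. The HB points of Syvn1, Creb3l3, Ppp1r15a, Creld2, Gdf15 and Nupr1 lie below their HF points and those of Pdia6, P4hb, Vcp, Derl1, Eif4ebp1 and Gars above, with no overlap in any of the 12.

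Several technical values and cell type markers differed between the groups, as single genes widely did. The groups did not overlap for 68.1% of all genes tested in mRNA and 42.3% in RPFs, and 27.0% passed for mRNA. In bulk liver, fewer cells of a type and less RNA per cell cannot be told apart. The summed mRNA level of 10 hepatocyte markers ranged from 98430 to 100274 RPKM in HF and from 88112 to 106727 in HB, and 1 of the 10 passed as higher. Sums that did not overlap were those of 5 red blood cell markers (523 to 675 RPKM in HF and 738 to 2249 in HB, 3 of 5 passing as higher), 7 stellate cell markers (36.6 to 38.8 and 46.6 to 74.9), 6 exocrine pancreas markers (7.02 to 9.81 and 12.9 to 13.8, with Cpa1 at 0 throughout), 5 cholangiocyte markers (26.2 to 31.9 and 15.7 to 26.0) and 5 lymphocyte markers (5.58 to 7.50 and 2.60 to 2.93, 1 passing as lower). Kupffer cell and endothelial markers overlapped, at 112 to 126 against 121 to 140 RPKM with 2 of 8 passing as higher, and at 72.6 to 82.9 against 68.3 to 77.9 RPKM with 1 of 6 passing as lower. In RPFs 0 markers passed, and the sums did not overlap for hepatocyte (46947 to 50810 RPKM in HF and 54260 to 56046 in HB), stellate cell (133 to 151 and 93.7 to 101), endothelial (132 to 153 and 69.0 to 118), cholangiocyte (14.2 to 15.2 and 0 to 8.63, with Krt7 and Epcam at 0 throughout) and exocrine pancreas markers (13.9 to 23.8 and 25.5 to 54.2). The stellate cell sums thus lay higher in HB for mRNA and lower for RPFs. The RPF sums of Kupffer cell (154 to 203 and 100.3 to 194), lymphocyte (1.80 to 10.6 and 1.34 to 7.75, with Cd79a and Ms4a1 at 0 throughout) and red blood cell markers (617 to 1109 and 381 to 2559) overlapped. The share of RPF reads on protein-coding genes was 93.6% and 92.7% in HF and 88.3% and 81.9% in HB. The part of these values, and of the larger RNA-seq and smaller Ribo-seq totals of HB, in the differences of Ern1, Atf4 and Ddit3 was not tested. All 3 passed with RPKM rescaled to protein-coding reads or to a common sum, and with medians aligned Ern1 and Ddit3 passed and Atf4 did not.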

How the data were processed

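Liver mRNA and RPFs were measured in 8 libraries, 2 per group and assay, with groups taken from the labels. The values deposited by the authors are RPKM, given for each gene in each library after mapping with FANSe2 to mm10. The region over which reads were counted is not given in the sources used here. The count-based test the study names was replaced, since the deposited values are RPKM and not counts. Reads recovered from them entered the voom alternative.

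Library totals, gene lengths and whole reads were recovered here from the steps between RPKM values. Of the values above 0, 99.98% to 99.99% lay on a whole read (tolerance 0.001 reads plus a relative 1e-06), and recovered reads made up 97.7% to 99.7% of the totals. The recovered lengths of all 10 genes exceeded their coding lengths in GENCODE M21 (Ern1 3976 against 2931 bases). Genes with a mean of at least 1 RPKM in an assay were tested with limma 3.58.1 (R 4.3.3; lmFit, eBayes with trend, group as the only factor, two-sided) on log2(RPKM + 1). TE was tested as the log2 ratio of RPF to mRNA, 1 added to each, pairing libraries of the same group and number, which nothing ties to the same animal. The 4 RNA-seq entries that share a symbol with another entry were dropped.

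The 10 genes were all described. Of each group of the wider list, up to 4 genes with the largest mRNA log2 fold change among those that passed and up to 2 with the most RPF reads were named. A gene selected for its RPF reads is not reported here. The members, lists and tests were chosen with earlier results of these data known. Alternatives were another pseudocount (0.1), filter (none, or 5 RPKM), scaling, variance prior, call threshold and pairing, voom, and leaving out each library; scaling to protein-coding reads and crossed blocks were added after the data were seen. On simulated data with 200 genes changed by a log2 of 2, 100% passed in the right direction for mRNA and 71.0% for RPFs. The changed RPF genes were drawn only from deeply covered genes, and the simulated spread was set in advance and not taken from these libraries. The 71.0% is therefore not the power of the RPF tests of the 10 genes.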

Additional observations from a re-analysis of the deposited data

How the results depend on the processing

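Atf4, Ddit3 and Ern1 passed together for mRNA in 8 of 15 alternatives. With medians aligned Ddit3, Atf6 and Ern1 passed. Without the filter on low values 0 passed, as did 0 of all genes, and by the study's thresholds 1 passed (Ern1). Leaving out each library in turn gave 2 to 5 genes, with 5 (Atf4, Ddit3, Trib3, Herpud1 and Ern1) without HB library 2, where 3726 of all genes passed against 1316 to 2441 without another library. For RPFs the number was 0 to 1 with a library left out and 1 by the study's thresholds, each time Ddit3, whose HB values are both 0 and give the fit no spread (701 and 704 of all genes passed without an HF library). For TE it was 0 to 1 with a library left out, Ern1 without HB library 1. The replicate block, which uses the shared replicate numbers, gave 3 genes for mRNA (3215 of all genes), 0 for RPFs (24 of all) and 0 for TE. Deviations of libraries with the same number correlated across genes at -0.104 between HF and HB in RNA-seq and at -0.0138 in Ribo-seq. Between the assays they correlated at -0.00239 in HF and -0.0774 in HB. With 2 libraries per group such values cannot settle whether a number marks shared samples or handling. A crossed replicate block, added after the data were seen, gave 3 and 0 genes, with 3601 and 79 of all.

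Some differences that did not pass changed sign. With medians aligned the log2 fold change was 0.0856 for Ppp1r15b mRNA, 0.24 for Ern1 RPFs and 0.0702 for Xbp1 TE. With a common sum, which moved the RPF median of all genes to -1.19, it was -0.82 for Xbp1 RPFs and -0.77, -0.68 for the TE of Atf4 and Herpud1. It was 0.16 (voom) and 0.0322 (protein-coding scaling) for Ern1 RPFs, 0.16 for Xbp1 TE with protein-coding scaling, and -0.00217 for Atf4 TE with a pseudocount of 0.1. Leaving out each library gave ranges of -0.49 to 0.58 (Xbp1), -0.99 to 0.0716 (Atf3) and -0.44 to 0.0657 (Ppp1r15b) for mRNA. For RPFs they were -1.56 to 0.00427 (Atf4), -0.33 to 0.42 (Xbp1), -0.52 to 0.35 (Ern1) and -1.11 to 0.35 (Herpud1). For TE they were -0.84 to 0.89 (Atf4), -0.18 to 0.17 (Xbp1), -1.52 to 0.83 (Trib3) and -0.39 to 0.70 (Herpud1). The cause was not tested. Of the other values recomputed for single genes and medians, 341 kept their call and direction, 7 came past the threshold, 8 lost it and 3 medians moved by more than the spread. RPF depth, at 141890 to 1056546 reads, limits Ddit3, Atf3, Asns and Trib3 to counts near the floor of 3 reads.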
